A study of Mus musculus with 6 samples.

Results

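The genes described are 10 receptor and identity genes of microglia, the resident macrophages of the brain. They include the purinergic receptors P2ry12, P2ry13 and P2ry6, the lipid receptor Gpr34, the fractalkine receptor Cx3cr1 and the growth factor receptor Csf1r. The others are the surface proteins Tmem119, Selplg and Siglech, and the transcription factor Sall1. The 10 genes were chosen by name, with earlier results of these data known. All 10 were found among the 34111 genes of the count table, of which 21136 held at least 1 UMI (a unique molecular identifier, which stands for 1 captured mRNA molecule). The cells came from the subventricular zone (SVZ), a stem cell niche of the adult brain, on the side of a photothrombotic lesion of the cortex (PT). Microglia and neural stem and progenitor cells (NSPCs) were sorted 1 cell per well from uninjured mice and from mice 1 day (PT D1) and 7 days (PT D7) after PT, with 2 libraries of 192 wells per condition. All 3 groups were Nestin-CreERT2:R26-yfp mice on a C57BL/6N background, of both sexes and 8 to 12 weeks old at the time of tamoxifen induction, in which tamoxifen switches on a yellow fluorescent protein in cells that use the Nestin promoter. The controls therefore carried the same alleles and had the same tamoxifen. Microglia were taken as CD11b+ CD45low cells, a gate that Cx3cr1 and the other genes described do not enter, and NSPCs as fluorescent cells.

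Resting microglia survey the tissue with fine, moving processes. Nucleotides that leak from damaged cells are sensed by P2Y receptors, the neuronal chemokine fractalkine by Cx3cr1, and colony-stimulating factor 1 and interleukin 34 by Csf1r, on which microglial survival depends. Genes such as P2ry12, Tmem119 and Sall1 are widely used to tell microglia from other macrophages, and low levels of these genes are a known feature of microglia that respond to injury or disease.

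The 658 cells were 416 microglia, 222 NSPCs and 20 cells that the study's table calls Unknown/Ependymal. Each library held 54 to 84 microglia with 294984 to 468186 UMIs in all, and the median microglial cell held 4155 to 5522.5 UMIs by library. Wells are numbered alike in every library, so that 164 of 180 well numbers recurred between libraries, and 0 cells had counts equal to those of another cell. In the microglia of PT D1 library 2, 35 of 76 cells belonged to the subcluster the table calls Development-associated MG, against 1 of 71 in PT D1 library 1. In PT D1 library 2 the summed level of 8 markers of border-associated macrophages was 1226 CPM (UMIs of a gene per 1000000 UMIs). In the other libraries it was 149 to 402. In PT D1 library 2, 541 of the UMIs came from Cbr2 alone, and the defining markers Mrc1 and Cd163 held 3 and 0 UMIs. Elf3, Evpl, Lad1 and Mal2, which the paper names for the Development-associated subcluster, summed to 922 CPM there and to 46.7 to 177 in the other libraries. The summed level of 6 choroid plexus genes was 10552 and 4678 CPM in the microglia of the uninjured libraries and 196 to 617 in those of the PT libraries. The part of these transcripts in the results was not tested beyond the counts given beside them. No source used here names the mice or the plate of a library. As many plates were processed as there were conditions, so each condition may have had a plate to itself. If so, condition and plate cannot be told apart.

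In the mouse genome (GRCm39, GENCODE vM39) P2ry12 and P2ry13 are neighbours, at chr3:59123682-59170429 and chr3:59114539-59118304 on the minus strand, 5377 bases apart. Both lie wholly within Med12l, a gene of the plus strand. Gpr34 (chrX:13489625-13507116, plus strand) lies wholly within Cask, a gene of the minus strand. P2ry6 is at chr7:100585308-100624173, Cx3cr1 at chr9:119877749-119898945, Tmem119 at chr5:113931781-113938577, Selplg at chr5:113956597-113970705 and Sall1 at chr8:89753863-89770823, all on the minus strand, and Siglech is at chr7:55417926-55429195 on the plus strand. Sall1 lies wholly within Gm3134 and Selplg shares 13870 of its 14109 bases with Gm71766, both long non-coding RNA genes of the plus strand. No source used here says whether reads were counted by strand. The values of P2ry12, P2ry13, Gpr34, Sall1 and Selplg may therefore hold reads of the genes that overlap them. The same applies to Csf1r, Cx3cr1 and P2ry6, which share 2189, 884 and 746 bases with genes of the opposite strand.

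The 250 bases before the annotated start of the main transcript were read for the 9 genes other than Csf1r. In 3 of them, P2ry13, Tmem119 and P2ry6, this window held no annotated exon, and these are shown because P2ry13 and Tmem119 fell after injury whereas P2ry6 was not called. Each is written 5′ to 3′ on the strand of its gene, and capitals mark a match to a motif named below.
P2ry13 (chr3:59118305-59118554, minus strand): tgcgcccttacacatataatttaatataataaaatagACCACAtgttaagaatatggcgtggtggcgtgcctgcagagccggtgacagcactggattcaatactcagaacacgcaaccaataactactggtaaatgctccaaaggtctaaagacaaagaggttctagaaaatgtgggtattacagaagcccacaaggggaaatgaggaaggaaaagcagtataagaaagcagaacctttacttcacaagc
Tmem119 (chr5:113938578-113938827, minus strand): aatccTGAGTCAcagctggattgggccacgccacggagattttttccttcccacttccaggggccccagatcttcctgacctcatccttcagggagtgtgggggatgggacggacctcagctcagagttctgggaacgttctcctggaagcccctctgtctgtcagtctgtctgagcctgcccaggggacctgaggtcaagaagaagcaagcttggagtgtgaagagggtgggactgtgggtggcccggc
P2ry6 (chr7:100613661-100613910, minus strand): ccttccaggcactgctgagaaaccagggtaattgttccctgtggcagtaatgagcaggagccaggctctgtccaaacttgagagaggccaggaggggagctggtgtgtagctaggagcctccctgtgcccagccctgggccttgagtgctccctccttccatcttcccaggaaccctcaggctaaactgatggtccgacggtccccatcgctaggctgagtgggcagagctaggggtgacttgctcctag

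The windows were searched on both strands for the letters of 5 motifs bound by factors known in myeloid cells, and no matches overlapped in the windows shown. TGTGGT, the core bound by RUNX factors, was found in P2ry13, Cx3cr1 and Siglech, that is in 3 of 9 windows, and in 2833 of the windows of 21751 protein-coding genes. TGAGTCA, the AP-1 site, was found in Tmem119 and in 4.03% of all windows. GAGGAAGT (PU.1), TATTTATA (MEF2) and AAGTGAAA (an IRF-type site) were found in 0 of the 9 windows and in 2.08%, 1.45% and 1.45% of all windows. The 250 bases of P2ry13 and P2ry12 had 41.6% and 42.0% G and C, those of Sall1 70.8%, and the median window 53.2%. A match says only that these letters are present, and none of the 5 motifs was found in all of the windows of genes that fell.

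For the comparison of conditions, UMIs were summed over the microglia of each library and are given as CPM after TMM scaling, which adjusts the library totals. Each gene's tag lies at the 3′ end of the transcript, so levels do not scale with transcript length, but they are compared here within genes only. At PT D1, 8 of the 10 genes had fallen against uninjured microglia by edgeR's quasi-likelihood test (Benjamini-Hochberg adjusted p under 0.05 over 4846 genes), and Csf1r and P2ry6 did not pass the test. Of all genes tested 2.97% were called lower in this comparison. At PT D7 none of the 10 passed the test against uninjured, and 7 were higher than at PT D1, where 1.69% of all genes were called higher. The libraries of a condition were treated as the replicates (n = 2), and whether they came from separate mice is not stated. They may be parts of the same plate or of the same pool of cells. The p-values therefore measure the spread between libraries, which may be technical only and may leave out the spread between mice.

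**Figure D1:**
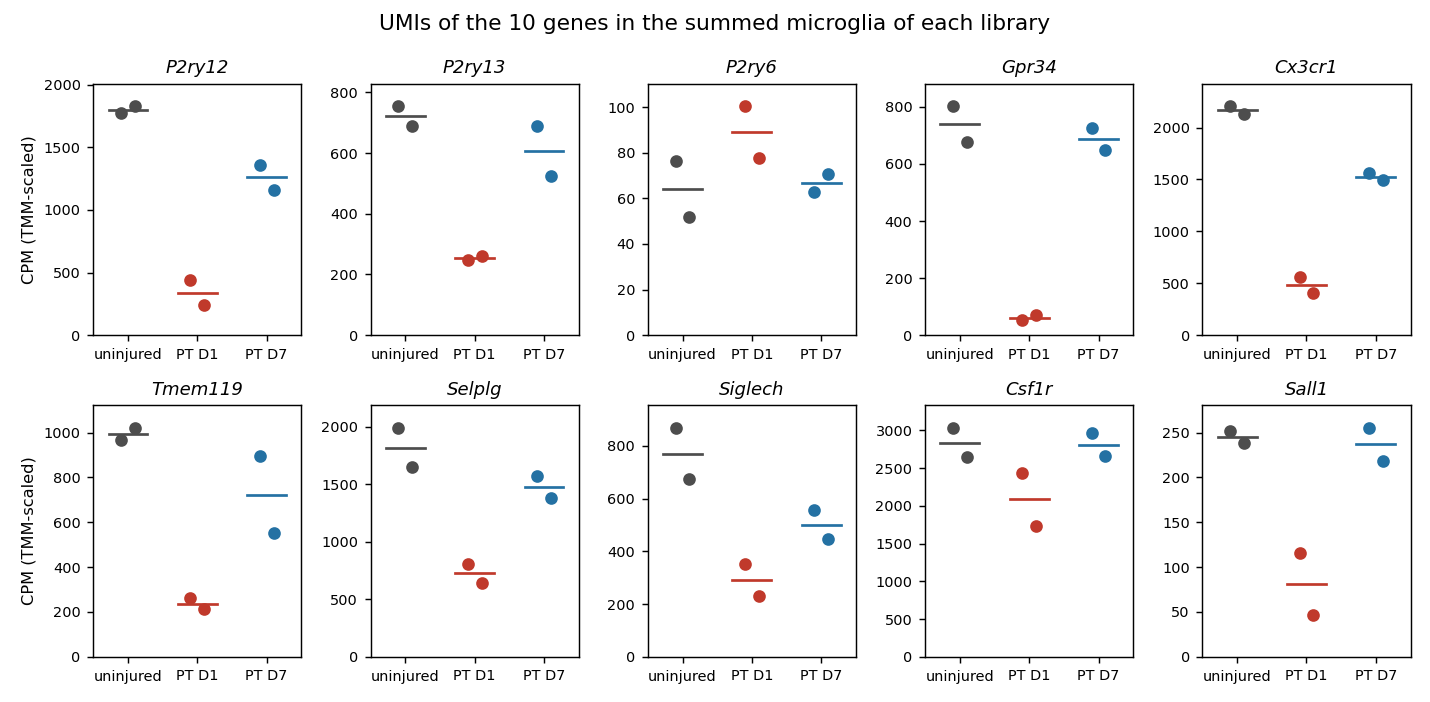
CPM (TMM-scaled, linear axes from 0) of each of the 10 genes in the summed microglia of the 6 libraries, with 1 point per library and a line at the mean of the 2. Both PT D1 libraries lie below both uninjured libraries for 9 genes, as they do for 24.2% of all genes tested. For P2ry6 both lie above them, with the nearest libraries at 77.7 (PT D1) and 76.5 CPM (uninjured). The share of all genes that lie above was not counted.

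P2ry12, the ADP receptor that steers microglial processes towards released nucleotides, stood at 1773 and 1827 CPM in uninjured libraries 1 and 2, at 441 and 238 in PT D1 libraries 1 and 2, and at 1362 and 1157 in PT D7 libraries 1 and 2. Both PT D1 libraries were lowest and both PT D7 libraries lay between the other groups, without overlap. The PT D1 mean was 18.8% of the uninjured mean, a log2 fold change of -2.41 ± 0.31 (SE, adjusted p = 0.0015). From PT D1 to PT D7 it rose by 1.90 ± 0.31 on the log2 scale (adjusted p = 0.00655). From these same cells, the paper lists P2ry12 among the markers of the cluster that prevailed in uninjured mice. A different cluster prevailed at day 1. For the protein, the paper reports the other direction by immunolabeling. Staining was low to absent in uninjured SVZ microglia, rose in a fraction of Cx3cr1+ cells at day 1 and had returned by day 7. The staining was of tissue from mouse lines that label microglia, so the mice and the choice of cells differed too. The difference between mRNA and protein was not tested here.

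P2ry13, a second ADP receptor and the neighbour of P2ry12, gave 753 and 689 CPM in uninjured, 249 and 262 in PT D1 and 689 and 523 in PT D7 libraries. The PT D1 libraries stood apart, and the PT D7 libraries narrowly overlapped the uninjured ones (689.114 in PT D7 library 1, 689.103 in uninjured library 2). It fell at PT D1 (log2 fold change -1.49 ± 0.25, adjusted p = 0.00682) and was higher again at PT D7 (1.24 ± 0.25, adjusted p = 0.0212).

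P2ry6, which senses UDP and is known for a role in phagocytosis, behaved otherwise. It gave 76.5 and 51.9 CPM in uninjured, 100.3 and 77.7 in PT D1 and 62.6 and 70.5 in PT D7 libraries, so that the PT D1 libraries were the highest. The difference at PT D1 did not pass the test (log2 fold change 0.48, 95% interval -0.23 to 1.19, adjusted p = 0.434). Only 151 UMIs of P2ry6 were counted in all microglia, which limits the precision of these values.

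Gpr34, a receptor for lysophosphatidylserine, showed the greatest fall of the 10. Its level was 801 and 679 CPM in uninjured, 51.6 and 70.4 in PT D1 and 727 and 649 in PT D7 libraries. The PT D1 mean was 8.25% of the uninjured mean, whereas the PT D7 libraries overlapped the uninjured ones after TMM scaling. The log2 fold change was -3.58 ± 0.29 at PT D1 (adjusted p = 0.000234) and 3.48 ± 0.29 from PT D1 to PT D7 (adjusted p = 0.000365).

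Cx3cr1, through which microglia receive fractalkine from neurons, gave 2203 and 2128 CPM in uninjured, 562 and 406 in PT D1 and 1558 and 1491 in PT D7 libraries. The 3 conditions did not overlap, with PT D7 between the other groups. It fell at PT D1 (-2.16 ± 0.27 on the log2 scale, adjusted p = 0.0013) and rose from PT D1 to PT D7 (1.66 ± 0.26, adjusted p = 0.00551). The 95% interval of its difference between PT D7 and uninjured was -1.06 to 0.05.

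Csf1r, the receptor that sustains microglia, moved least among the genes that were lower at PT D1. It gave 3027 and 2648 CPM in uninjured, 2437 and 1739 in PT D1 and 2965 and 2659 in PT D7 libraries. The PT D1 libraries lay below the others, but the 2 differed from each other by more than the nearer one differed from uninjured library 2. The log2 fold change of -0.44 (95% interval -1.02 to 0.14) was not called (adjusted p = 0.36). Set against Csf1r within each library, the uninjured libraries held 26.5 and 25.6 UMIs of Gpr34 per 100 UMIs of Csf1r, the PT D1 libraries 2.12 and 4.05, and the PT D7 libraries 24.5 and 24.4. For P2ry12 these ratios were 58.6 and 69.0, 18.1 and 13.7, and 45.9 and 43.5. Within a library, therefore, these receptors and Csf1r changed unequally, and the ratios of PT D1 did not overlap those of the other conditions.

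Tmem119, a membrane protein used as a microglial marker, gave 969 and 1019 CPM in uninjured, 264 and 211 in PT D1 and 894 and 553 in PT D7 libraries. The PT D7 libraries differed most from each other, and both lay below both uninjured libraries. It fell by 2.06 ± 0.29 on the log2 scale at PT D1 (adjusted p = 0.00246) and rose by 1.60 ± 0.29 from there to PT D7 (adjusted p = 0.0119). Selplg, which encodes a ligand of selectins, gave 1985 and 1650, then 805 and 643, then 1575 and 1383. It fell to 39.8% of the uninjured mean at PT D1 (log2 fold change -1.33 ± 0.26, adjusted p = 0.0143). Its rise to PT D7 was close to the threshold (1.03 ± 0.26, adjusted p = 0.0492) and was not called in 9 of 19 alternative settings. Siglech, a member of the Siglec family of lectins, gave 867 and 672, then 352 and 231, then 555 and 445, with no overlap between any of the conditions. It fell at PT D1 (-1.40 ± 0.29, adjusted p = 0.018). Its difference between PT D7 and PT D1 (0.78 ± 0.29) was not called (adjusted p = 0.166), but was with the library number as a block (adjusted p = 0.0281) or without PT D1 library 1 (adjusted p = 0.0256).

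Sall1, a zinc finger protein that maintains the microglial programme, gave 252 and 239 CPM in uninjured, 115 and 46.1 in PT D1 and 255 and 219 in PT D7 libraries. The PT D1 libraries were lowest but differed from each other by more than those of any other condition. It fell at PT D1 (log2 fold change -1.62 ± 0.36, adjusted p = 0.0259) and was higher at PT D7 than at PT D1 (1.57 ± 0.37, adjusted p = 0.0397), a call that held in 9 of 19 alternative settings.

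**Figure D2:**
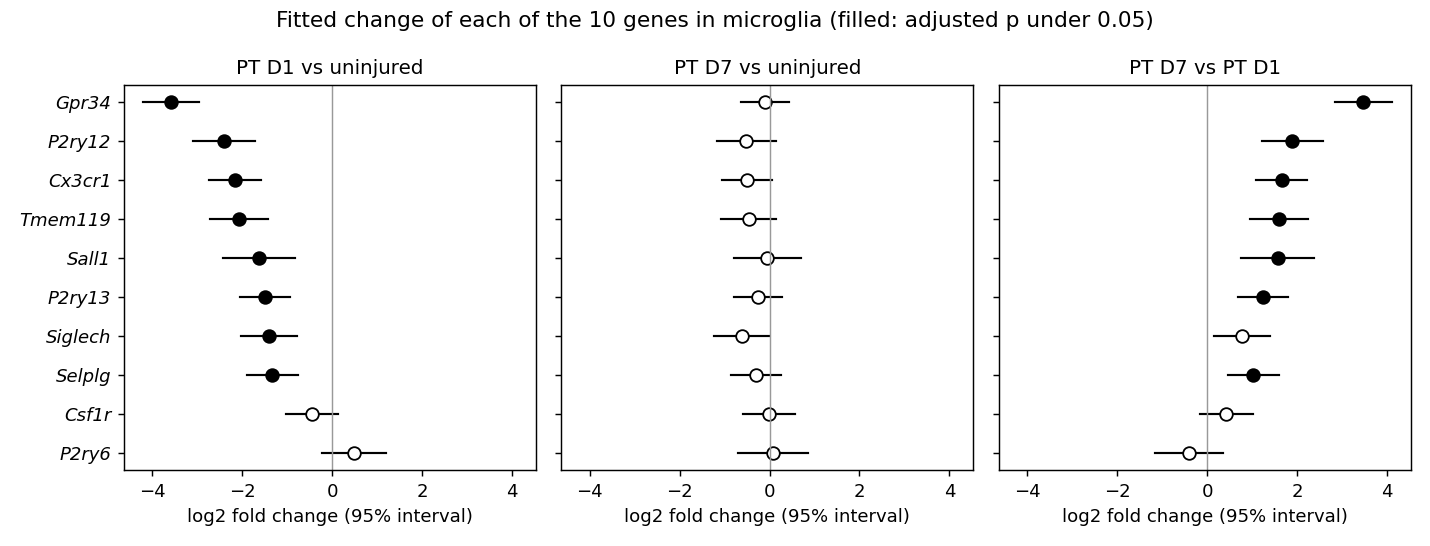
Log2 fold change of each of the 10 genes in microglia with its 95% interval, for PT D1 against uninjured, PT D7 against uninjured and PT D7 against PT D1 (edgeR, 2 libraries per condition). Filled points have an adjusted p under 0.05: 8 in the left panel, 0 in the middle and 7 on the right.

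Between PT D1 and uninjured, both libraries of PT D1 lay below both uninjured libraries for 9 of the 10 genes, as they did for 24.2% of all genes tested. The median log2 fold change was -1.56 over the 10 genes and 0.04 over all genes. The direction and the calls of P2ry12, Gpr34, Cx3cr1 and Tmem119 held in all 19 alternative settings. P2ry13, Selplg, Siglech and Sall1 were no longer called when uninjured library 1 or uninjured library 2 was left out (4 of 10 called in either case), with adjusted p from 0.0721 to 0.204. Sall1 was also not called with only the 2 conditions compared or with cells thinned to 1000 UMIs. Without the cells of the Development-associated subcluster, or without the 21 cells that held UMIs of 2 or more border-associated macrophage markers, 8 of 10 were called as before. The filter on these markers removed only 4 of 76 microglia of PT D1 library 2. It was therefore no test of the part of the Cbr2 UMIs in that library.

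Between PT D7 and uninjured, 0 of the 10 genes passed edgeR's test, 1 had an unadjusted p under 0.05 (Siglech, 0.048) and DESeq2 called 0. Over all genes 8 were called, 0.0619% of genes were called lower, and 355 had an unadjusted p under 0.05. In simulated data with these library sizes, 12.5% of genes changed by a fold of 2 and 71% of those changed by a fold of 4 were recovered in this comparison. At a fold of 2 it was 3.5% for PT D1 against uninjured and 0% for PT D7 against PT D1. The changed genes were drawn from all genes tested and not at the levels of the 10. The simulation also gave every gene the same spread between libraries, unlike the fit of the real data. These shares therefore do not say how often a change of the 10 would be called. The absence of calls does not show that levels were equal. The log2 fold changes ran from -0.62 for Siglech to 0.07 for P2ry6, with a median of -0.27 against -0.01 over all genes. Both PT D7 libraries lay below both uninjured libraries for 5 genes, P2ry12, Cx3cr1, Tmem119, Selplg and Siglech, as for 20.3% of all genes. The libraries overlapped for the other 5, but for all of these except P2ry6 the overlap rests on the TMM scaling. In unscaled CPM, Gpr34 gave 777 and 698 in uninjured and 590 and 591 in PT D7 libraries. Csf1r gave 2934 and 2725 against 2407 and 2419, and P2ry13 and Sall1 also separated. Without TMM 69.4% of all genes had a log2 fold change below 0, and the share that separated was not counted.

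Between PT D7 and PT D1, both PT D7 libraries lay above both PT D1 libraries for 9 genes, against 22.7% of all genes, and below for P2ry6, against 24.1% of all genes. The median log2 fold change was 1.41 over the 10 genes and -0.01 over all genes. Gpr34 and Cx3cr1 were called in every one of 19 alternatives. Without PT D7 library 1 only these 2 were called, without either uninjured library or with cells thinned to 1000 UMIs 4 were, and with the library number as a block 8 were. This comparison shares its PT D1 libraries with the first and its PT D7 libraries with the second, so the 3 sets of values are not independent.

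The levels were next described in the 5 microglial subclusters of the study's table. These were drawn from the expression of the same cells, the 10 genes included, so their differences are given without a test, as CPM of all UMIs with exact Poisson intervals that cover counting error only. Homeostatic MG (175 cells) had the highest level of 9 genes, with P2ry12 at 1961 (1868 to 2058) and Cx3cr1 at 2294. P2ry6 was the exception, highest in Activated MG at 96.5 (72.3 to 126), with an interval that overlaps that of Homeostatic MG (70.3). Unknown MG (59 cells) followed for P2ry12 at 1003, with Tmem119 at 541 and P2ry13 at 488. Disease-associated MG (37 cells) held P2ry12 at 584, Activated MG (104 cells) at 335 and Development-associated MG (41 cells) at 259, and the intervals of the last 2 overlapped. Tmem119 and P2ry13 had the same order. Microglial markers outside the 10 genes summed to 10487 CPM in Development-associated MG and 10099 in Unknown MG, against 16836 to 18736 in the others. Elf3, Evpl, Lad1 and Mal2 summed to 1785 CPM in Development-associated MG and to 29.6 to 125 in the others. The part of these transcripts in the low levels of Development-associated MG was not tested.

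The subclusters did not rank alike for every gene. Gpr34 was 487 (407 to 578) in Disease-associated MG, close to the 444 of Unknown MG, and 51.0 (33.9 to 73.7) in Activated MG. Cx3cr1 behaved in the same way, with 1164 in Disease-associated MG, 1036 in Unknown MG and 497 in Activated MG. For Selplg, P2ry13 and Siglech, by contrast, Disease-associated and Activated MG had levels within each other's intervals, with Selplg at 706 and 730, P2ry13 at 271 and 251, and Siglech at 305 and 313. Csf1r was lower in Unknown MG (1633) than in Disease-associated (2380) and Activated MG (2178). Sall1 ran from 280 in Homeostatic MG to 42.4 in Development-associated MG, where 10 UMIs gave an interval of 20.3 to 78.0.

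**Figure D3:**
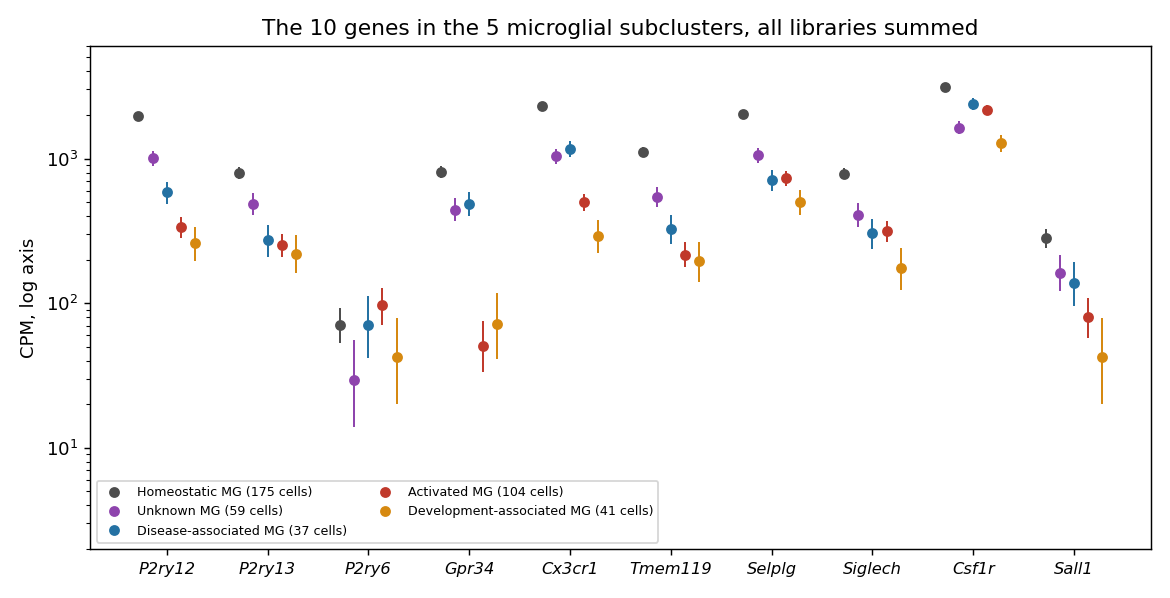
CPM of all UMIs of each gene in the 5 microglial subclusters, on a log axis, with all libraries summed and exact 95% Poisson intervals as bars. Homeostatic MG is highest for 9 genes, and Gpr34 is at 487 in Disease-associated MG, 51.0 in Activated MG and 72.1 in Development-associated MG.

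The subclusters were spread unevenly over the conditions. Of the PT D1 microglia, 64 of 71 and 40 of 76 cells were Activated MG and 0 and 1 were Homeostatic MG, whereas 54 of 71 and 70 of 84 uninjured cells and 18 of 54 and 32 of 60 PT D7 cells were Homeostatic MG. Activated MG held 0 cells of the other conditions. The fall of the genes at PT D1 and the near absence of Homeostatic MG come from the same counts, since the subclusters were drawn from them, and are not independent measurements. Within Homeostatic MG, the level of P2ry12 was 1904 and 2127 in uninjured libraries and 2066 and 1604 at PT D7, that of Cx3cr1 2358 and 2367 against 2354 and 1970, and that of Siglech 930 and 737 against 945 and 562, so that the groups overlapped for P2ry12 and Siglech. In a fit of these cells alone the 10 log2 fold changes of PT D7 against uninjured lay between -0.23 and 0.25, and 0 were called. The subcluster was drawn from expression that includes these genes, so cells with low levels may have been placed in other subclusters. The fit therefore cannot show that levels were unchanged. Within Unknown MG, Cx3cr1 was 1374 and 1704 in uninjured libraries and 804 and 867 at PT D7, and P2ry12 was 1183 and 1182 against 1085 and 816. Both stood lower at PT D7 in all libraries, which hold 6 to 20 of these cells each. The other genes are not given here, and the share of all genes that separated likewise was not counted. These CPM lack TMM scaling. Without it, 69.4% of all genes in the whole microglia had a log2 fold change below 0 at PT D7 against uninjured.

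Cell by cell, every microglial cell was thinned at random to 1000 UMIs, so that depth could not set how often a gene was seen. P2ry12 had a UMI in 76.1% (68.6 to 82.6, exact Clopper-Pearson interval) of uninjured, 23.8% (17.2 to 31.5) of PT D1 and 67.5% of PT D7 microglia. Unthinned, the shares were 93.5%, 72.8% and 92.1%. Gpr34 went from 54.2% to 6.80% and 45.6%, and by library it was seen in 8.45% and 5.26% of PT D1 microglia. Csf1r was seen in 88.4%, 73.5% and 87.7%, and P2ry6 in 6.45%, 8.84% and 5.26%. These intervals treat cells of a library as independent and leave out the spread between libraries. The median cell held UMIs of 6 of the 10 genes in the uninjured, 3 in the PT D1 and 5 in the PT D7 condition. Cells with 5 or more of the 10 made up 80.3% and 79.8% of microglia in the uninjured, 12.7% and 10.5% in the PT D1 and 55.6% and 56.7% in the PT D7 libraries, with less than 3 percentage points between the libraries of a condition.

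**Figure D4:**
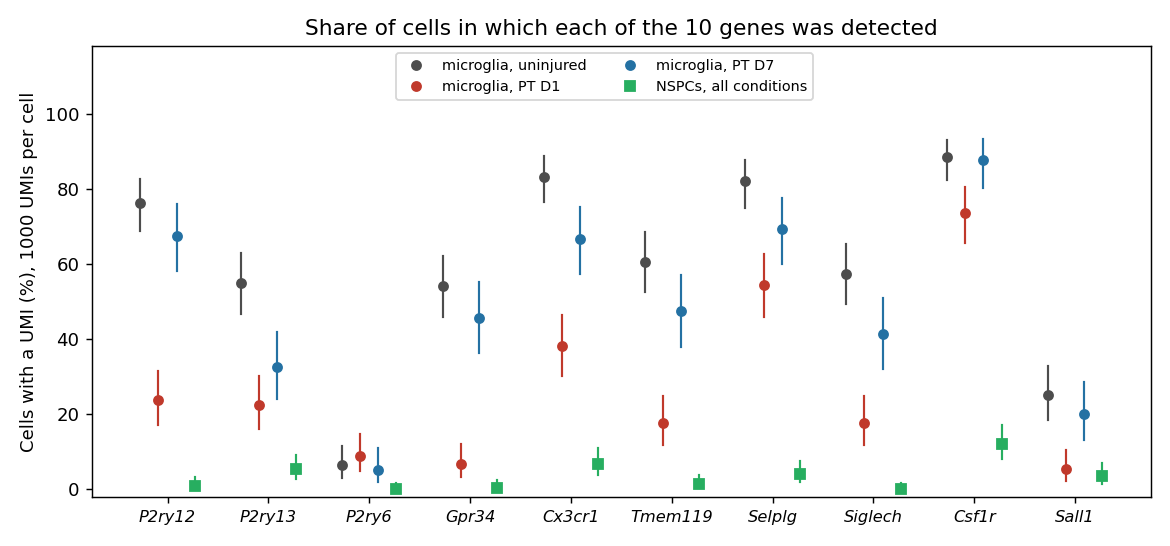
Percentage of cells with at least 1 UMI of each gene after thinning every cell to 1000 UMIs, in the microglia of each condition and in all NSPCs, with exact 95% Clopper-Pearson intervals as bars. For P2ry12 the share is 76.1% in uninjured, 23.8% in PT D1 and 67.5% in PT D7 microglia and 0.901% in NSPCs.

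NSPCs, sorted from the same tissue by their fluorescence, gave the level of these genes outside microglia. Summed over the libraries, it was 0.939% of the microglial level for P2ry6, 1.17% for Siglech, 2.02% for P2ry12, 2.28% for Tmem119, 2.54% for Gpr34, 4.24% for Selplg, 4.55% for Cx3cr1, 5.07% for Csf1r and 10.4% for P2ry13. In PT D7 library 1, with 15 NSPCs, the percentages of most genes were higher. They were 14.4% for Gpr34, 14.2% for Selplg, 13.6% for Csf1r, 12.5% for Cx3cr1 and 8.77% for P2ry12. Those of P2ry13 and P2ry6 were lower, at 6.50% and 0%, as was that of Sall1 (23.4%). In the other 5 libraries those of P2ry12 reached 1.73% at most and those of Csf1r 7.04%, and Gpr34 stood at 9.14% in PT D1 library 2, from 2 UMIs, and at 1.71% or less in the rest. The summed level of 10 microglial markers was also highest in the NSPCs of PT D7 library 1, at 2376 CPM against 778 to 1238. Microglial markers outside the list, 10 in all, C1qb among them, had levels of 1.12% to 12.5% in NSPCs. Sall1 was higher than all of these, at 29.0%, with 78 UMIs in NSPCs. By library its percentages were 17.6% and 20.5% in uninjured, 39.5% and 76.8% in PT D1 and 23.4% and 34.3% in PT D7. The 76.8% of PT D1 library 2 came from 42.4 CPM in microglia and 32.6 CPM in NSPCs, the latter from 11 UMIs. Because of these percentages, the level of Sall1 in NSPCs was not taken as a background. UMIs of Sall1 were seen in NSPCs of all 6 libraries, as were those of Csf1r, Cx3cr1, P2ry13, Selplg and Tmem119. Thinned to 1000 UMIs, 0.901% of 222 NSPCs held a UMI of P2ry12, 12.2% held Csf1r, 5.41% P2ry13 and 3.60% Sall1, whereas Siglech and P2ry6 were found in 0 cells, which allows a share of up to 1.35%. The median NSPC held more UMIs (5118 to 7002 by library) than the median microglial cell. At PT D1, Gpr34 in 6.80% of microglia was above its share of 0.450% in NSPCs. Classes had been assigned from expression, so these contrasts are descriptions.

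The genes that moved most like the 10 together were sought among 2022 genes, over 14 sums of 1 subcluster in 1 library with at least 5 cells, by Pearson's r of log2(CPM + 1). The sums share libraries and the subclusters differ in depth, so r is a description, and the median gene had an r of 0.10. Most alike were Rgs2 (0.93), a regulator of G protein signalling, Bin2 (0.91), Crybb1 (0.91), Hpgd (0.91), the enzyme that degrades prostaglandins, and Lpcat2 (0.90), an enzyme of lipid mediator synthesis. Least alike were Lilr4b (-0.80), an inhibitory receptor of myeloid cells, Actn4 (-0.67), an actin crosslinker, and Cd63 (-0.65), a tetraspanin of late endosomes. P2ry12 was most like Fscn1 (0.94) and Srgap2 (0.92), Csf1r like Serinc3 (0.94), and Selplg like Pde3b (0.93) and Rtn4rl1 (0.92). Among the 10 genes themselves, P2ry13 and Selplg were the closest pair (0.96), and each of 9 genes had an r of 0.68 or more with the sum of the others, Csf1r having the lowest of these, while P2ry6 had -0.03.

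Lists of related genes gave the setting. Of 24 other identity genes of microglia 23 were tested. At PT D1 8 were called lower and 0 higher, with a median log2 fold change of -0.87, where 2.97% of all genes were called lower. The fructose transporter Slc2a5 fell by 3.56 ± 0.37 on the log2 scale, from 184 and 174 CPM in uninjured libraries to 15.2 and 14.6 at PT D1, with 163 and 108 at PT D7. Among the others called, Olfml3, a secreted microglial protein, fell by 1.99, Bin1 by 2.08, Crybb1 by 2.37, Fscn1 by 1.91, Ecscr by 1.59 and Kctd12 by 1.24. From PT D1 to PT D7, where 1.69% of all genes were called higher, 7 of these 23 rose and 0 fell. They were Slc2a5 (3.15), Olfml3 (2.13), Crybb1 (2.13), Bin1 (2.10), Kctd12 (1.57), Fscn1 (1.53) and Fcrls (1.12). At PT D7 against uninjured 0 were called, and Cst3, the gene of the list with the highest level, had a log2 fold change of -0.26 (adjusted p = 0.91).

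Of 15 other purinergic receptors and nucleotide-handling enzymes only 4 could be tested, Entpd1, P2rx4, P2rx7 and Adora3, and 0 were called in any comparison. Entpd1, which degrades extracellular ATP and ADP, had the highest level and gave 229 and 286 CPM in uninjured, 161 and 141 in PT D1 and 192 and 171 in PT D7 libraries. Its log2 fold change of -0.78 at PT D1 was not called (adjusted p = 0.108). Of 12 transcription factors and signal carriers 10 were tested. Mef2c, a factor of the microglial programme, fell at PT D1 (-1.23 ± 0.29, adjusted p = 0.0333), and Runx1 was lower at PT D7 than at PT D1 (-1.38 ± 0.30, adjusted p = 0.029). These were the only calls, 1 of 10 in each comparison, where 144 and 102 of all 4846 genes were called lower. At PT D7 against uninjured 0 of the 10 factors and carriers were called. Of 8 ligands and shedding proteases of the receptors 4 were tested and 0 called, among them Adam10, a protease that sheds fractalkine, with log2 fold changes of 0.07 and 0.12 at PT D1 and PT D7 against uninjured. Csf1, a ligand of Csf1r, had a log2 fold change of 2.53 at PT D7 against uninjured, with an adjusted p of 0.109.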

How the data were processed

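Single cells were sequenced by mCEL-Seq2, and the submitters' processing notes name bcl2fastq 2.17.1.14 and the genome build GRCm39. The aligner, counting program and annotation could not be found in the sources. The deposited values are raw counts of UMIs per gene and cell, made by the authors and not normalized, for cells they kept after quality control. The authors also gave the percentage of mitochondrial UMIs of each cell, its class and its subcluster. Not used were 12 of the columns they gave, and 92 spike-in rows held 0 UMIs. Libraries were numbered from the labels and, for PT D7, from the final digit before the well number in each cell's name.

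UMIs were summed over the microglia of each library, which set the depth stated in the results, and tested in edgeR 4.0.16 (TMM, filterByExpr, quasi-likelihood F-test, R 4.3.3) with the 3 conditions in 1 fit. P-values were adjusted by Benjamini and Hochberg's method over all 4846 genes tested, and genes were called under 0.05. With 2 libraries in each group, the smallest two-sided p of an exact permutation test is 0.333. The script was tested on simulated data. The deviations of same-numbered libraries from their condition means correlated at 0.22, 0.193 and 0.262 across genes, so values with the number as a block are given where they change a call. No label states what the number stands for. Libraries 1 and 2 held 16 and 59 NSPCs in uninjured, 19 and 52 in PT D1 and 15 and 61 in PT D7. In their microglia 10 NSPC markers summed to 302 and 780, 217 and 460, and 197 and 591 CPM. The SE values, and the p-values not named otherwise, come from the fit without the block. The sorter was set against doublets and the authors had dropped cells with unusually high UMI totals as putative doublets, and no further doublet removal was done here. Intervals are at 95%, a count of 0 allows 3 counts, and both cover counting error only.

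The 10 genes, the lists and the motifs were chosen with earlier results of these data known. The text names all 10 genes in each comparison, the called genes of each list or, where 0 were called, its gene with the highest mean level, and the genes most and least alike by rank, apart from some values that are not reported here. Csf1 was added after its value had been seen. Alternatives were DESeq2 1.42.0, other normalization, filters, cells and samples, and the removal of cells with border-associated macrophage markers, the last chosen after seeing the data.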

Additional observations from a re-analysis of the deposited data

Results flagged for a closer look

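The effects of PT on microglia at day 1 and day 7, each taken against the uninjured libraries, differed by edgeR's quasi-likelihood test for 7 of the 10 genes, and this difference is the same quantity as the comparison of PT D7 with PT D1. Of all 4846 genes tested, 184 were called in that comparison, and 1.69% of all genes were called higher. The effect at PT D7 minus that at PT D1, on the log2 scale, was 3.48 for Gpr34, 1.66 for Cx3cr1, 1.90 for P2ry12, 1.60 for Tmem119, 1.24 for P2ry13, 1.57 for Sall1 and 1.03 for Selplg. For Siglech, Csf1r and P2ry6 the difference was not called. Subclusters moved with these values, since 1 of 147 PT D1 microglia and 50 of 114 PT D7 microglia were Homeostatic MG, and the part of cell composition within each library was not tested.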

How the results depend on the processing

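The 8 genes called at PT D1 kept their direction in all alternatives, as did the 7 called between the PT conditions. At PT D1 the number of the 10 genes called ranged from 4 to 8 when 1 library was left out, and was 7 or 8 otherwise. Between PT D7 and uninjured it was 0 in each setting, the leave-one-out fits included. Between PT D7 and PT D1 it ranged from 2 to 8 with 1 library left out, and was 4 with only the 2 conditions compared, 4 with cells thinned to 1000 UMIs, 5 with DESeq2 or without TMM, and 8 with the library number as a replicate block. The block changed no other call of these genes. Thinning left 9 genes to test, without P2ry6, and far fewer UMIs. The fit of Homeostatic MG alone was not run for PT D1, which had 0 and 1 such cells.

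Between PT D7 and uninjured, log2 fold changes that were not called changed sign. For P2ry6 they were -0.15 without TMM, -0.010 with at least 10 UMIs in every library, -0.040 in cells with at least 2000 UMIs, -0.14 in cells with at most 10% mitochondrial UMIs and -0.20 to 0.35 with 1 library left out. With 1 library left out they were -0.22 to 0.010 for Gpr34, -0.12 to 0.078 for Csf1r and -0.19 to 0.066 for Sall1. Within Homeostatic MG they were 0.25 for P2ry13, -0.20 for P2ry6, 0.022 for Tmem119, 0.20 for Selplg, 0.14 for Csf1r and 0.18 for Sall1. Without cells holding 3 or more NSPC markers they were 0.048 for Gpr34, 0.048 for Csf1r and 0.21 for Sall1. Csf1r was at 0.030 without Unknown MG and 0.013 without cells that held border-associated macrophage markers. The cause of these changes was not tested.

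Over all genes, 276, 8 and 184 were called (PT D1 and PT D7 against uninjured, then PT D7 against PT D1), against 106, 9 and 88 with DESeq2, 541, 35 and 422 without a filter, 204, 4 and 125 with at least 10 UMIs in every library, 639, 43 and 462 with the block, 220, 10 and 94 with 2 conditions, 73, 2 and 24 thinned, 405, 19 and 281 without Development-associated MG, 313, 16 and 189 without Unknown MG, 272, 3 and 187 without cells with NSPC markers, and 45 to 538, 0 to 38 and 46 to 418 with 1 library left out. Of these genes 132 were higher and 144 lower at PT D1, and 89 and 175 without TMM, where the median log2 fold change of all genes was -0.09. Between the PT conditions 82 were higher and 102 lower, and 59 and 111 without TMM (median -0.11), and at PT D7 that median was -0.25. Unthinned, shares of microglia with a UMI rose for each gene, from 55.3% to 85.8% for P2ry12 and from 7.0% to 28.4% for P2ry6, and of the 5 genes most like the 10 together 2 were among the first 5 by Spearman's rho.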
